A study of Mus musculus with 69 samples.

Results

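The carbonic anhydrases are described here by 9 genes, Car2, Car3, Car4, Car5b, Car8, Car12, Car13, Car14 and Car15, picked by gene symbol from a table of 24411 genes counted in 69 mouse kidney libraries. All 9 were present in the table and all 9 passed the filter on low counts, with a mean count per library from 118 for Car13 to 4814 for Car2. The libraries were made from mice that carried a Cre-dependent Uprt, the uracil phosphoribosyltransferase that lets a cell build 4-thiouracil (4-TU) into newly made RNA, and every mouse was given 430 mg/kg 4-TU 4 h before the kidney was taken. Uprt was switched on by Hoxb7Cre, which marks the collecting duct, or by Atp6v1b1Cre, which marks intercalated cells and cells that share principal and intercalated markers (the sample labels write these genotypes as Hoxb7Cre;UPRTf/+ and Atp6b1v1Cre;UPRTf/+). In 48 libraries the tagged RNA was biotinylated and pulled down, and 21 libraries held the total kidney RNA of control mice of both genotypes.

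The study compared control mice with mice after either of 2 injuries. Control mice were not injured, iAKI mice had both renal arteries clamped for 10 min with the RNA labeled 24 h later (ischemia), and vAKI mice went without water and food for 72 h (volume depletion). The main injury comparisons used the 22 male pulldowns of mice aged 5.5 months, with 4 control, 4 iAKI and 3 vAKI libraries for Hoxb7Cre and 4 control, 3 iAKI and 4 vAKI libraries for Atp6v1b1Cre. The 21 female pulldowns of that age had 4, 3 and 4 libraries for Hoxb7Cre and 4, 3 and 3 for Atp6v1b1Cre, and the other 5 pulldowns came from controls aged 3 months. The control comparisons used the 21 control pulldowns and the 21 total RNA libraries. Pulldown and total RNA may come from the same control mice, which the labels do not tell.

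Carbonic anhydrases interconvert carbon dioxide and water with bicarbonate and a proton. In the kidney they feed the proton pumps and bicarbonate transporters with which the tubule reclaims bicarbonate and excretes acid. The members sit in different compartments. Car2, Car3 and Car13 are cytosolic, Car5b is mitochondrial, Car4 and Car15 are tethered to the outer face of the membrane by a lipid anchor, and Car12 and Car14 span the membrane with the catalytic domain outside. Car8 has lost the catalytic zinc site and is counted with the family by sequence.

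Library totals ran from 12618062 to 30305464 counts, so even the least abundant member, Car13, had at least 45 counts in every library. Levels are given as CPM (counts scaled to a common library size with edgeR's TMM factors over all 69 libraries), and levels between genes are compared only as RPKM, the CPM divided by the summed exon length in kilobases. Changes are log2 fold changes ± their standard errors from edgeR's quasi-likelihood test, called when the Benjamini-Hochberg adjusted p over all 21175 genes tested was under 0.05. Each library is taken as 1 mouse, and where libraries shared an animal p-values would measure technical spread. Because whole-kidney RNA pools were measured, fewer cells of a type and less RNA per cell cannot be told apart. Pulldowns hold RNA made during the 4 h label, while total RNA holds all standing RNA. The study cautions that pulldowns may reflect RNA turnover and may favor uracil-rich RNA. These cannot be told apart from cell type in a comparison of pulldown with total RNA. The pools were not pure by marker. The 8 proximal tubule markers summed to 2216 to 5515 CPM in Atp6v1b1Cre control pulldowns and 2338 to 5219 CPM in Hoxb7Cre control pulldowns, against 12862 to 22668 CPM in total RNA, and the 8 intercalated cell markers to 703 to 1718, 574 to 1297 and 498 to 858 CPM.

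The sequences before the starts of Car14 and Car12 are shown because these 2 genes moved in opposite directions after volume depletion in males. The genes lie on chromosome 3 from 95897768 to 95904691 (Car14, minus strand) and on chromosome 9 from 66713686 to 66766845 (Car12, plus strand) in GRCm38. Promoter entries matched 5 of the 9 members (Car4, Car5b, Car12, Car14 and Car15) and none matched Car2, Car3, Car8 or Car13. Each line gives the 250 bases before the RefSeq start on GRCm38.p6, 5′ to 3′ on the gene's strand, for Car14 at chr3:95904686-95904935 and for Car12 at chr9:66713436-66713685. Capitals mark ACGTG, the core of the hypoxia response element, and TGACNTCA, the octamer of the cyclic AMP response element family with a free centre base, both searched on both strands.
Car14: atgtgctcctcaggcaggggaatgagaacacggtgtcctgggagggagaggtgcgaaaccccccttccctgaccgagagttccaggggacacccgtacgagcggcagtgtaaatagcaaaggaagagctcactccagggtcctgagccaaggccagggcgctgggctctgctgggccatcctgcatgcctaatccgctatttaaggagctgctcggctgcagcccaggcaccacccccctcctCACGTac
Car12: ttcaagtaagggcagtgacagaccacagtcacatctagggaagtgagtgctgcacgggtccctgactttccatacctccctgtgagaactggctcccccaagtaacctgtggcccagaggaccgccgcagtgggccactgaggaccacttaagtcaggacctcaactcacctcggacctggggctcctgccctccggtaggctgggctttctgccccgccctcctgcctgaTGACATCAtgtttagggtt
ACGTG was found 1 time in the Car14 window (as its reverse complement) and in 16.6% of the 32851 promoters of the same length. TGACNTCA was found 1 time in the Car12 window and in 7.49% of those promoters. Neither motif was found in the windows of Car4, Car5b and Car15, and TGTTTAC, the forkhead core, and TATAAA, held by 3.17% and 12.4% of all promoters, were found in none of the 5. The motifs were chosen with the results known, and a match describes letters in this window, not binding.

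In total kidney RNA, Car2 was the most abundant member per length at 179 ± 31 RPKM (SD, n = 21). Car15 followed at 108.1 ± 30.7 RPKM, then Car4 at 84.7 ± 34.1, Car3 at 73.7 ± 19.8, Car14 at 41.6 ± 7.2, Car12 at 35.0 ± 5.4 and Car5b at 20.1 ± 3.1 RPKM. Car8 at 2.89 ± 0.88 RPKM and Car13 at 1.77 ± 0.26 RPKM were far lower. Car2 exceeded Car15 in 21 of 21 libraries. The means of Car15 and Car4 lay within their spread over both sexes (Car15 higher in 10 of 21 libraries), but their order was opposite in the sexes. In the 11 males Car4 was at 115 ± 15 RPKM and Car15 at 85.4 ± 10.0 RPKM, and in the 10 females Car4 was at 51.5 ± 3.8 RPKM and Car15 at 133 ± 26 RPKM. Car4 was above Car3 in 12 of 21 libraries. Car14 was above Car12 in 17 of 21 and Car8 above Car13 in 20 of 21, although the means of each pair lay within their SDs. With the longest transcript as the length, Car12 ranked above Car14 and the other 7 kept their ranks.

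The order changed in the pulldowns of control mice. In Atp6v1b1Cre pulldowns Car2 led at 62.9 ± 16.3 RPKM (SD, n = 11) and was above Car15, at 32.5 ± 7.5 RPKM, in 11 of 11 libraries. In Hoxb7Cre pulldowns Car15 came first at 58.1 ± 9.0 RPKM (SD, n = 10) and Car2 at 52.1 ± 13.3 RPKM, although this pair did not differ beyond its spread and Car15 was higher in 7 of 10 libraries. Car12 came next in both, at 19.7 ± 6.1 and 18.3 ± 8.1 RPKM. Of the summed RPKM of the 9 members, Car4 held 15.9% in total RNA but 6.30% and 4.88% in Atp6v1b1Cre and Hoxb7Cre pulldowns, while Car12 held 6.47%, 12.4% and 10.4%.

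**Figure D1:**
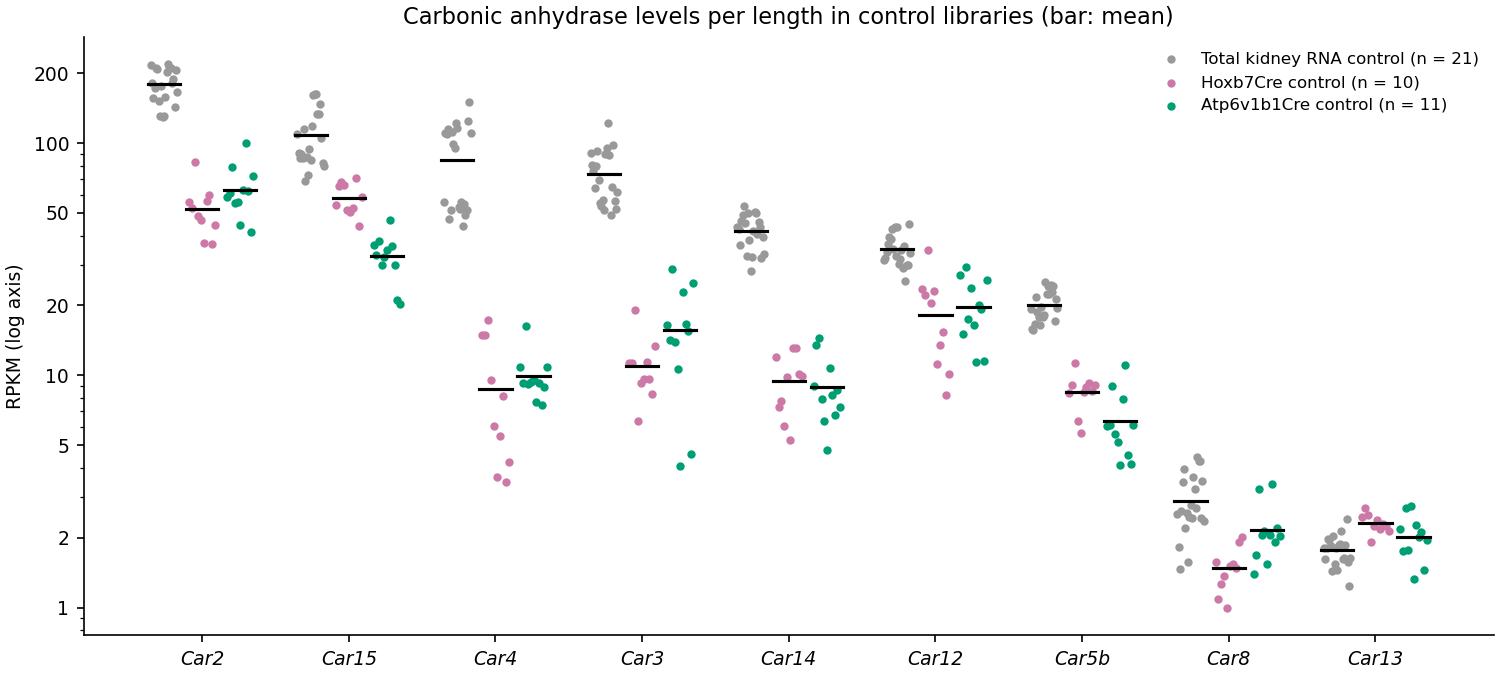
RPKM on a log axis of each carbonic anhydrase in every control library, grouped as total kidney RNA (n = 21), Hoxb7Cre pulldowns (n = 10) and Atp6v1b1Cre pulldowns (n = 11), with bars at the means. Every member but Car13 has a lower mean in both pulldowns than in total RNA.

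Against total RNA, 8 of the 9 members were lower in the Hoxb7Cre pulldown and the same 8 were lower in the Atp6v1b1Cre pulldown, and 1, Car13, was higher in both. The background is high, since 66.6% and 63.8% of all genes were called in these comparisons (31.1% and 29.4% lower, 35.6% and 34.4% higher), and the comparisons share the 21 total RNA libraries. The median change of the members was -1.23 and -1.60 on the log2 scale, and that of all genes was 0.11 in both.

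Car4, an anchored enzyme known from the proximal tubule and thick limb, was far lower in both pulldowns. It was at 167 ± 67 CPM (SD, n = 21) in total RNA, with a lowest of 86.5, a median of 187 and a highest of 295. It was at 17.2 ± 10.2 CPM (n = 10) in Hoxb7Cre pulldowns and 19.5 ± 4.7 CPM (n = 11) in Atp6v1b1Cre pulldowns, with highest values of 33.9 and 32.1. No pulldown library reached the lowest total RNA library. The changes were -3.10 ± 0.21 (adjusted p = 1.15e-17) for Hoxb7Cre and -2.98 ± 0.20 (adjusted p = 7.40e-18) for Atp6v1b1Cre. In males alone they were -3.24 and -3.58, and in females alone -2.91 and -2.23.

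Car14 and Car3 were also much lower in the pulldowns. Car14 was at 105.9 ± 18.3 CPM in total RNA (71.6 to 136), 24.04 ± 7.15 CPM in Hoxb7Cre pulldowns (13.4 to 33.4) and 22.6 ± 7.6 CPM in Atp6v1b1Cre pulldowns (12.1 to 36.96), changes of -2.16 ± 0.13 and -2.17 ± 0.12. Car3 was at 211 ± 57 CPM in total RNA and 31.5 ± 9.9 and 45.0 ± 22.1 CPM in the pulldowns, changes of -2.72 ± 0.21 and -2.15 ± 0.19. Neither gene's pulldown values overlapped its values in total RNA.

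Car2, the cytosolic enzyme of intercalated and proximal tubule cells, fell less, by 1.74 on the log2 scale in Hoxb7Cre and by 1.44 in Atp6v1b1Cre pulldowns. Car12, which the study places in the proximal tubule and collecting duct, was 1.86-fold and 1.76-fold lower. Its lowest total RNA library, at 193 CPM, lay inside the ranges of both pulldowns (62.6 to 263 and 87.1 to 223 CPM). Car13 was 5.30 ± 0.50 CPM in Hoxb7Cre pulldowns, 4.66 ± 1.02 CPM in Atp6v1b1Cre pulldowns and 4.07 ± 0.60 CPM in total RNA. Its rises of 0.41 ± 0.09 (adjusted p = 0.000138) and 0.25 ± 0.09 (adjusted p = 0.0132) came with overlapping groups. The proximal tubule markers were lower in the pulldowns too, 7 of 8 in Hoxb7Cre and 8 of 8 in Atp6v1b1Cre, and their part in these differences was not tested.

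The drivers were then compared with each other in control mice. Of the 9 members, 3 were called, beside 9.93% of all genes. Car15 was lower in Atp6v1b1Cre pulldowns, at 62.0 ± 14.2 CPM (38.7, 62.7 and 88.8 as lowest, median and highest, n = 11), than in Hoxb7Cre pulldowns, at 111 ± 17 CPM (83.5, 107.4 and 135, n = 10), a change of -0.78 ± 0.13 (adjusted p = 8.02e-06). The ranges overlapped only at their edges. The 6 principal cell markers differed the same way, with 4 of 6 lower in Atp6v1b1Cre pulldowns and sums of 427 to 883 CPM against 964 to 3031 CPM. Their part in the Car15 difference was not tested.

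Car8 went the other way, at 8.29 ± 2.44 CPM in Atp6v1b1Cre and 5.69 ± 1.23 CPM in Hoxb7Cre pulldowns, a rise of 0.68 ± 0.14 (adjusted p = 0.000353). Of the 8 intercalated cell markers, 5 were higher in Atp6v1b1Cre pulldowns and none was lower. Car5b was 1.29-fold lower (adjusted p = 0.0138), with 40.3 ± 13.8 against 54.1 ± 9.9 CPM. Its change was -0.67 ± 0.14 among male controls (adjusted p = 0.00218) and -0.059 ± 0.113 among female controls (adjusted p = 0.860). Car15 and Car8 kept their directions in both sexes but passed in males alone (-1.10 and 0.68, adjusted p = 2.49e-06 and 0.0256) and not in females alone (-0.53 and 0.62, adjusted p = 0.0670 and 0.0893). Car3 passed in females alone (0.95 ± 0.20, adjusted p = 0.00632) and not in males (0.16, adjusted p = 0.839). Whether the driver differences differ between the sexes was not tested. These driver fits had no age term. Atp6v1b1Cre control replicates 14, 15 and 16, all males, and Hoxb7Cre control replicates 7 and 8, both females, were aged 3 months. Driver and age are therefore mixed in the split by sex. Car2 was at 152 ± 39 CPM in Atp6v1b1Cre and 126 ± 32 CPM in Hoxb7Cre pulldowns and was not called, nor were Car3, Car4, Car12, Car13 and Car14. Among the female controls alone it was higher in Atp6v1b1Cre pulldowns by 0.63 on the log2 scale (adjusted p = 0.0121), and among the males the change was -0.051 (adjusted p = 0.908). In total RNA 0 of the 9 members were called between the genotypes by edgeR (0.189% of all genes) and 0 by DESeq2, and 1 of the 9, Car8, had an unadjusted p under 0.05 (p = 0.00904, adjusted p = 0.445).

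After injury, Car14 was the only member called in all 4 comparisons of male pulldowns with controls. It fell after ischemia and rose after volume depletion with both drivers. In Hoxb7Cre males it was at 18.5, 19.8, 15.4 and 24.9 CPM in control libraries, 9.99, 5.85, 12.0 and 7.76 CPM after iAKI and 55.6, 43.7 and 39.5 CPM after vAKI. In Atp6v1b1Cre males it was at 22.8, 20.1, 16.2 and 12.1 CPM in control libraries, 5.95, 3.33 and 4.15 CPM after iAKI and 35.7, 44.5, 29.9 and 33.1 CPM after vAKI. In both drivers all iAKI libraries lay below all controls and all vAKI libraries above them.

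The fall after iAKI was -1.13 ± 0.23 (adjusted p = 0.00548) in Hoxb7Cre and -1.99 ± 0.26 (adjusted p = 0.000297) in Atp6v1b1Cre pulldowns. The rise after vAKI was 1.24 ± 0.24 (adjusted p = 0.000277) and 1.03 ± 0.22 (adjusted p = 0.00371). Set directly against each other, vAKI exceeded iAKI 5.18-fold in Hoxb7Cre (adjusted p = 4.05e-07) and 8.10-fold in Atp6v1b1Cre pulldowns (adjusted p = 2.93e-07). All 6 calls were kept when any single male library was left out. The difference between the drivers was not called for iAKI (adjusted p = 0.120) or vAKI (adjusted p = 0.821). With both sexes in the fit 3 of the 6 passed, namely vAKI against iAKI in Hoxb7Cre (1.53, adjusted p = 0.000625) and Atp6v1b1Cre (2.01, adjusted p = 1.53e-05) and the iAKI change in Atp6v1b1Cre pulldowns (-1.27, adjusted p = 0.00651). The others were -0.74 (iAKI, Hoxb7Cre), 0.78 and 0.73 (vAKI, Hoxb7Cre and Atp6v1b1Cre; adjusted p = 0.197, 0.0825 and 0.0670).

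**Figure D2:**
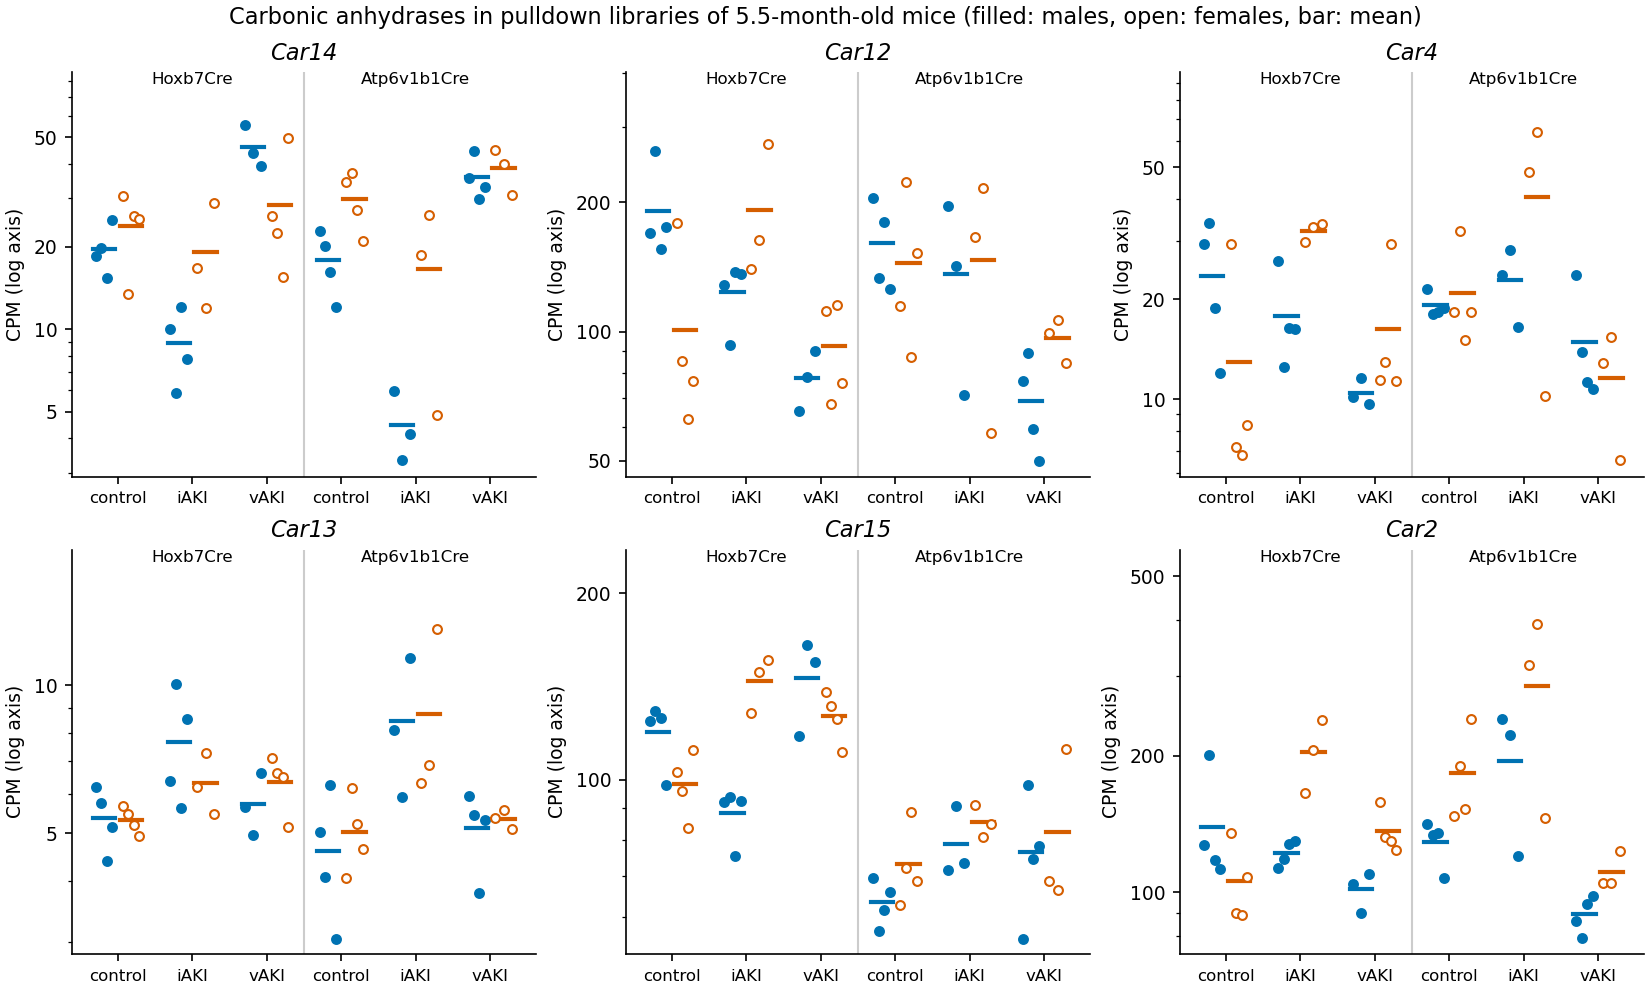
CPM on a log axis of 6 carbonic anhydrases in every pulldown library of mice aged 5.5 months, by driver and condition, with males as filled points, females as open points and bars at the means. In males of both drivers the Car14 points fall after iAKI and rise after vAKI, while the female points after either injury overlap those of female controls.

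Proximal tubule markers were measured beside Car14, which is known from that segment. In Atp6v1b1Cre males 3 of 8 fell after iAKI (Slc34a1, Slc5a12 and Slc27a2) and their summed level was 1609 to 2059 CPM against 3625 to 5515 CPM in controls. In Hoxb7Cre males 0 of 8 were called after iAKI, with sums of 2103 to 4179 against 3345 to 5219 CPM. After vAKI no marker rose in either driver, 3 of 8 (Slc22a6, Slc13a3 and Slc27a2) fell in Atp6v1b1Cre and 1 of 8 (Slc13a3) in Hoxb7Cre pulldowns. Over the 48 pulldowns the correlation of Car14 with the summed markers was r = 0.51, and over the 21 total RNA libraries r = -0.11, both across libraries that share depth and scaling. Other marker sums also varied with Car14 over the pulldowns. The sum of the injury markers Havcr1, Lcn2 and Krt20 had r = -0.63 and the thick ascending limb sum r = -0.45, with 0.24 and 0.30 in total RNA.

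The 3′ end of Car14 overlaps Aph1a on the other strand, and the library kit does not mark strand, so reads there cannot be assigned by strand. Aph1a, a subunit of gamma-secretase, was at 33.3 to 40.6 CPM in Hoxb7Cre male controls and 24.1 to 26.2 CPM after vAKI, and at 28.5 to 37.2 and 20.5 to 36.1 CPM in Atp6v1b1Cre males. After iAKI it was at 27.1 to 30.2 CPM in Hoxb7Cre males, below all their controls as Car14 was, and at 33.4 to 39.2 CPM in Atp6v1b1Cre males.

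Car12 was lower after volume depletion in both drivers. In Hoxb7Cre males it was at 169, 263, 156 and 175 CPM in controls and 65.4, 78.2 and 90.0 CPM after vAKI, a change of -1.29 ± 0.27 (adjusted p = 0.000723). In Atp6v1b1Cre males it was at 205, 133, 180 and 126 CPM in controls and 76.9, 89.2, 59.3 and 49.9 CPM after vAKI, a change of -1.20 ± 0.25 (adjusted p = 0.00241). The groups did not overlap in either driver. After iAKI it was at 128, 93.1, 138 and 136 CPM in Hoxb7Cre and 196, 142 and 71.04 CPM in Atp6v1b1Cre males, and was not called against controls. Both vAKI calls were kept without any single library. With both sexes in the fit the Atp6v1b1Cre call was kept (-0.91, adjusted p = 0.00921) and the Hoxb7Cre call was not (-0.76, adjusted p = 0.0538).

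Thick ascending limb markers fell beside Car12. After vAKI, 4 of 5 (Umod, Slc12a1, Cldn10 and Ptger3) were lower in Hoxb7Cre males, with sums of 810 to 902 CPM against 1428 to 2439 CPM in controls, and 3 of 5 (Slc12a1, Cldn10 and Ptger3) were lower in Atp6v1b1Cre males, with 920 to 1064 against 1057 to 2096 CPM. Of the 8 intercalated cell markers, 5 and 4 were lower, among them Foxi1 and Atp6v1b1 in both drivers. Proximal tubule sums were 3352 to 3889 CPM after vAKI and 3345 to 5219 CPM in controls in Hoxb7Cre males. In Atp6v1b1Cre males they were 1703 to 5536 and 3625 to 5515 CPM. Over the 48 pulldowns Car12 had r = 0.75, 0.67 and 0.45 with the thick limb, intercalated cell and proximal tubule sums. In the 21 total RNA libraries these were -0.43, -0.30 and 0.65. The part of these markers in the Car12 change was not tested.

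Car4 and Car5b fell after vAKI in Hoxb7Cre males. They were not called in Atp6v1b1Cre males, but the difference between the drivers was not called for either (adjusted p = 0.287 and 0.0834). Car4 was at 29.4, 33.9, 18.8 and 12.0 CPM in controls and 10.2, 11.6 and 9.66 CPM after vAKI, a change of -1.16 ± 0.31 (adjusted p = 0.00500). The lowest control lay just above the highest vAKI library. Car5b, which supplies bicarbonate inside mitochondria, was at 57.7, 71.8, 40.6 and 35.9 CPM in controls and 27.2, 26.3 and 30.6 CPM after vAKI, a change of -0.87 ± 0.20 (adjusted p = 0.00128), again with no overlap. For both genes control replicates 2 and 3 (library numbers 23 and 24) lay above control replicates 4 and 5 (70 and 71). The vAKI libraries are numbers 15, 33 and 34. In females alone neither gene kept its direction (0.33 and 0.21, adjusted p = 0.915 and 0.843). In Atp6v1b1Cre males Car4 was at 18.1 to 21.4 CPM in controls and 10.7 to 23.6 CPM after vAKI, and Car5b at 26.2 to 38.5 and 24.7 to 38.5 CPM, each with overlapping groups.

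Car13 was the only member called as higher than control after ischemia in males. In Atp6v1b1Cre males it was at 5.03, 4.07, 6.28 and 3.05 CPM in controls and 8.10, 5.92 and 11.4 CPM after iAKI, a rise of 0.88 ± 0.25 (adjusted p = 0.0322) with 1 iAKI library inside the control range. In Hoxb7Cre males it was at 4.395 to 6.19 CPM in controls and 5.62 to 10.1 CPM after iAKI and was not called. The Atp6v1b1Cre call was lost without control replicate 9 (0.82), control replicate 11 (0.73), iAKI replicate 1 (0.92) or iAKI replicate 5 (0.62), with adjusted p up to 0.147. With both sexes in the fit it was kept (0.82, adjusted p = 0.000509). The injury markers Havcr1, Lcn2 and Krt20 all rose after iAKI in both drivers, from sums of 4.15 to 14.5 CPM to 18.5 to 469 CPM in Atp6v1b1Cre males and from 10.4 to 17.2 to 74.7 to 414 CPM in Hoxb7Cre males. Their sum had r = 0.79 with Car13 over the 48 pulldowns and r = 0.14 over the 21 total RNA libraries.

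Counted over the family, ischemia called 2 of 9 members in Hoxb7Cre males (Car3 and Car14, both lower), beside 6.13% of all genes, and 2 of 9 in Atp6v1b1Cre males (Car13 higher, Car14 lower), beside 8.51%. Volume depletion called 4 of 9 in Hoxb7Cre males (Car4, Car5b and Car12 lower, Car14 higher), beside 35.5%, and 2 of 9 in Atp6v1b1Cre males (Car12 lower, Car14 higher), beside 14.6%. The volume depletion counts are close to those shares. Car2, Car8 and Car15 were not called in any of the 4 male comparisons. Car8 had means of 4.56, 5.56 and 5.61 CPM in Hoxb7Cre and 6.87, 8.99 and 7.38 CPM in Atp6v1b1Cre males for control, iAKI and vAKI. With both sexes in the fit Car2 was called in Atp6v1b1Cre pulldowns. It was higher after iAKI (0.61, adjusted p = 0.0169) and lower after vAKI (-0.62, adjusted p = 0.00766). Each pair of injuries in a driver shares its control libraries. The members' median change was -0.38 and 0.30 after iAKI and -0.45 and -0.07 after vAKI in Hoxb7Cre and Atp6v1b1Cre males, and the median of all genes was 0 in all 4 comparisons.

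**Figure D3:**
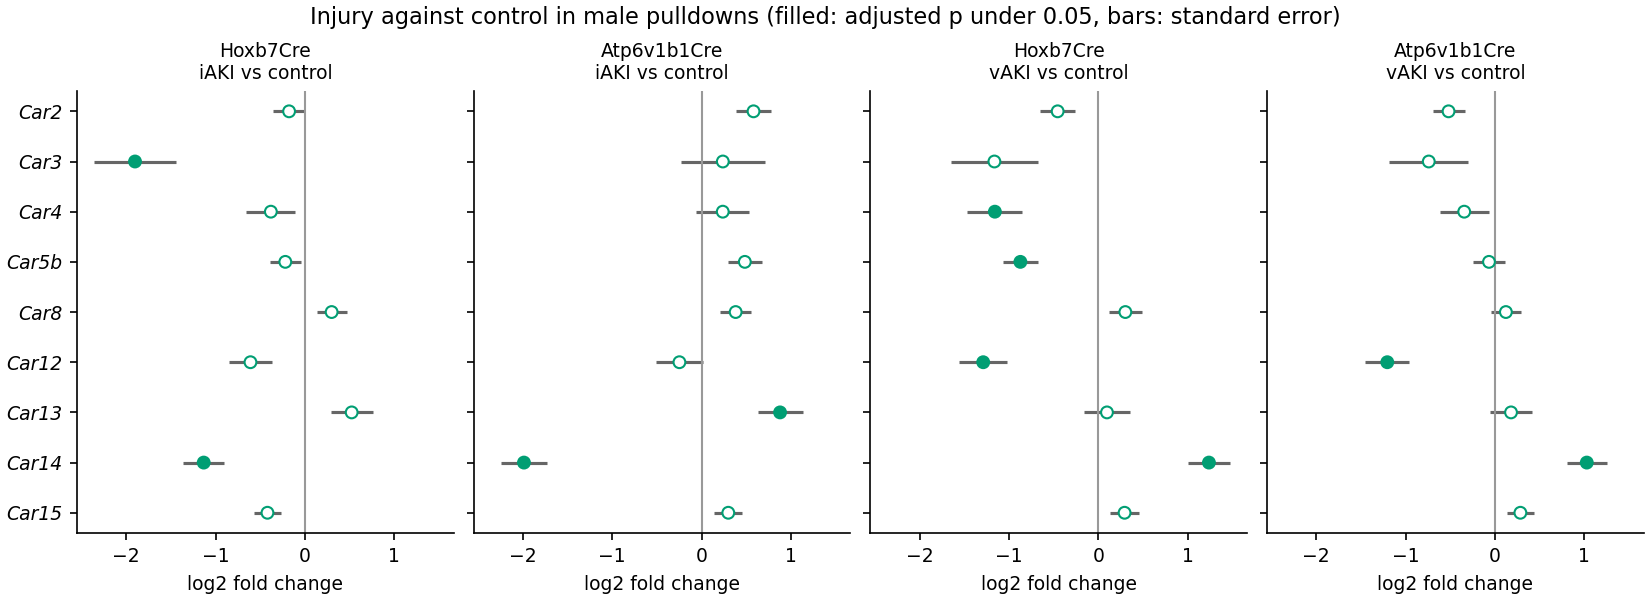
log2 fold change against control of each carbonic anhydrase in the male pulldowns, 1 panel for each driver and injury, with standard errors as bars and filled points where the adjusted p was under 0.05. Car14 is left of 0 in both iAKI panels and right of 0 in both vAKI panels, and Car12 is at -1.29 and -1.20 in the vAKI panels.

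The 2 injuries were also set against each other. In Hoxb7Cre males 3 of 9 members differed (33.3% of all genes), Car14 and Car15 being higher and Car5b lower after vAKI. Car15, the lipid-anchored enzyme that is intact in rodents, was at 92.0, 94.0, 75.4 and 92.5 CPM after iAKI and 118, 165 and 155 CPM after vAKI, with controls at 125, 129, 126 and 98.3 CPM. The rise of 0.71 ± 0.16 (adjusted p = 0.00118) came with no overlap between the injuries, while neither injury was called against controls. All 6 principal cell markers were lower than in controls after both injuries in these males, with sums of 868 to 1046 CPM after iAKI, 1006 to 1132 CPM after vAKI and 2423 to 3031 CPM in controls.

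In Atp6v1b1Cre males 5 of 9 members differed between the injuries (29.3% of all genes). Car14 was higher after vAKI, and Car2, Car5b, Car12 and Car13 were lower. Car2 was at 242, 223 and 120 CPM after iAKI, 86.2, 78.9, 94.1 and 97.8 CPM after vAKI and 141, 134, 135 and 107.3 CPM in controls. The groups of the injuries did not overlap, and the change was -1.10 ± 0.19 (adjusted p = 0.000201). Car5b was 1.46-fold lower (adjusted p = 0.0321), at 31.3 ± 6.6 against 46.8 ± 6.7 CPM. Without iAKI replicate 1 the count was 2, and without vAKI replicate 6 or 7 it was 3. Of the 8 intercalated cell markers 6 were lower after vAKI than after iAKI, with summed levels of 645 to 1007 CPM and 852 to 2200 CPM. The thick limb markers summed to 920 to 1064 CPM after vAKI and 1963 to 3366 CPM after iAKI. Over the 22 male pulldowns Car2 had r = 0.85 with the thick limb sum and 0.78 with the intercalated cell sum. The part of these markers was not tested.

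Car3 varied together with adipocyte markers. This enzyme is abundant in skeletal muscle and fat, and markers of both were counted. The 5 muscle markers were near 0, with sums of at most 5.38 CPM in any library and Myh4 at 0 counts in all control pulldowns. The 6 adipocyte markers summed to 155 to 501 CPM in total RNA, 35.5 to 138 CPM in Hoxb7Cre and 36.8 to 118 CPM in Atp6v1b1Cre control pulldowns. Across libraries Car3 had r = 0.84 with that sum in the 21 total RNA libraries and r = 0.62 in the 48 pulldowns. With the intercalated cell sum it had r = 0.48 and 0.56 in the same libraries, so in the pulldowns the correlation was not particular to adipocyte markers.

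**Figure D4:**
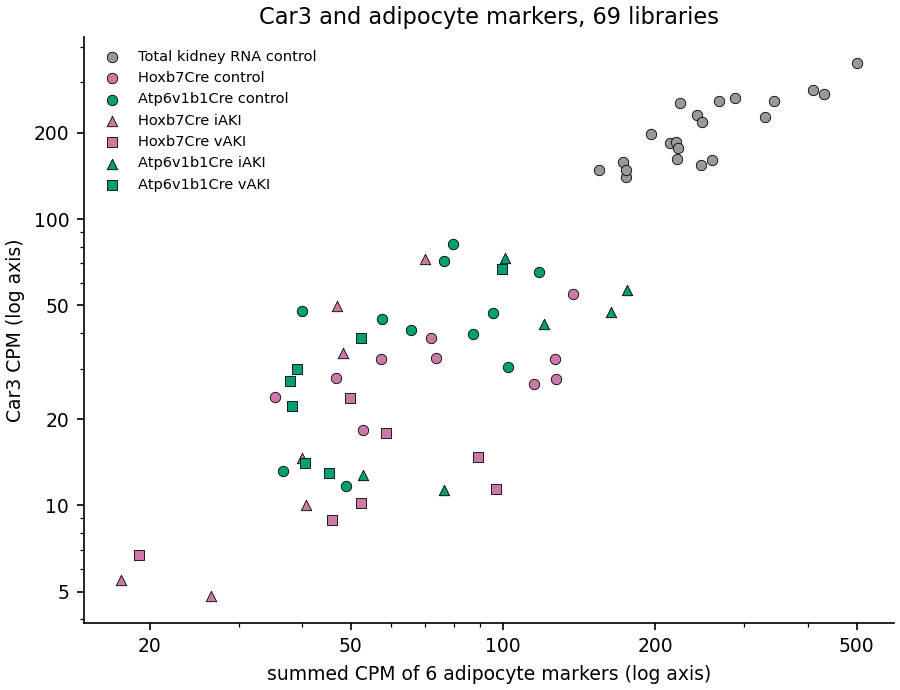
Car3 CPM against the summed CPM of 6 adipocyte markers in each of the 69 libraries, both on log axes, coloured by RNA pool and shaped by condition. Libraries with more adipocyte marker RNA have more Car3, both among the total RNA libraries at the upper right and among the pulldowns.

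In Hoxb7Cre males Car3 was at 32.4, 54.7, 18.3 and 26.5 CPM in controls and 9.99, 14.7, 5.47 and 4.82 CPM after iAKI, with no overlap and a change of -1.90 ± 0.46 (adjusted p = 0.0153). In the same libraries 4 of 6 adipocyte markers were lower (Adipoq, Plin1, Cidec and Ucp1), and the sums were 52.9 to 138 CPM in controls and 17.5 to 40.7 CPM after iAKI. Their part in the Car3 change was not tested. The Car3 call was lost without control replicate 3 (-1.55), iAKI replicate 6 (-1.73) or iAKI replicate 7 (-1.70), with adjusted p up to 0.0714, and in females alone the change was 0.78 (adjusted p = 0.298). In Atp6v1b1Cre males Car3 was at 11.7 to 47.1 CPM in controls and 11.3 to 56.4 CPM after iAKI, and the iAKI responses of the drivers differed by 2.14 ± 0.65 (adjusted p = 0.0450), with 4 of 6 adipocyte markers differing the same way. With Car15, whose drivers differed by 0.72 ± 0.22 (adjusted p = 0.0434), it made 2 of 9 members called, beside 7.79% of all genes. Each of these calls was kept in 10 of the 22 fits that left out 1 library. Of the 6 principal cell markers, 5 were higher in the same difference as Car15. For vAKI 0 of 9 members were called between the drivers by edgeR (4.2% of all genes) and 1 by DESeq2, and 1 of 9, Car5b, had an unadjusted p under 0.05 (p = 0.00552).

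The Hoxb7Cre response to ischemia differed between the sexes for 4 of 9 members, beside 10.5% of all genes. Females were higher in the response for all 4. Car2 was at 135, 90.1, 88.9 and 107.8 CPM in female controls and 166, 206 and 240 CPM in females after iAKI, whereas males were at 113 to 201 CPM in controls and 113 to 130 CPM after iAKI. The responses differed by 1.13 ± 0.31 (adjusted p = 0.0216), and in females alone the rise of 0.96 ± 0.25 passed the test (adjusted p = 0.0439). Car15 was at 102.95, 95.9, 83.5 and 112 CPM in female controls and 128, 150 and 156 CPM after iAKI, and its responses differed by 0.97 ± 0.23 (adjusted p = 0.00947).

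Car12 was at 179, 85.2, 62.6 and 76.8 CPM in female controls and 140, 164 and 274 CPM after iAKI, a difference between the sexes of 1.54 ± 0.48 (adjusted p = 0.0351). Control replicate 1 stood above the other 3 female controls in Car12 and Car4. It carried library number 21, the others carried 74, 99 and 100, and the female iAKI libraries carried 1 to 3. The female change after iAKI is therefore mixed with library number, for which the sex-by-injury fits had no term. Car3 was at 23.9 to 38.3 CPM in female controls and 34.1, 72.5 and 49.7 CPM after iAKI, with a difference of 2.66 ± 0.69 (adjusted p = 0.0146). Principal cell markers moved with this, 5 of 6 being higher in the female than in the male response, with sums of 964 to 2187 CPM in female controls and 1230 to 2565 CPM after iAKI. The thick limb markers summed to 1013 to 2449 CPM in female controls and 3199 to 4339 CPM after iAKI, with 1 of 5 called. Their part was not tested. Without female iAKI replicate 3 the count of members was 0, without male control replicate 3 it was 1 and without female control replicate 9 it was 2.

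For volume depletion in Hoxb7Cre pulldowns 1 of 9 members, Car5b, differed between the sexes, beside 16% of all genes. It was at 53.5, 53.8, 54.7 and 57.9 CPM in female controls and 70.4, 70.9, 77.8 and 34.9 CPM after vAKI, and the responses differed by 1.07 ± 0.31 (adjusted p = 0.0173). The female vAKI libraries carried numbers 8, 9, 10 and 16, and the female controls 21, 74, 99 and 100. The female change after vAKI is therefore mixed with library number too. The call was lost without control replicate 3 (0.87) or vAKI replicate 3 (0.96), and the count of members was 2 without Atp6v1b1Cre iAKI replicate 6, 3 without vAKI replicate 5 and 4 without control replicate 1. All 6 principal cell markers and 4 of 5 thick limb markers were higher in the female response. In Atp6v1b1Cre pulldowns 0 of 21175 genes were called for a sex difference in either response by edgeR, with 676 and 1756 genes at an unadjusted p under 0.05 for iAKI and vAKI. DESeq2 called 1 and 44 genes, and 0 of 9 members in both.

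In Atp6v1b1Cre females the contrast between the injuries kept the male direction for Car14, at 45.0, 40.1 and 30.9 CPM after vAKI against 18.6, 26.02 and 4.88 CPM after iAKI (1.25 ± 0.47, adjusted p = 0.0438), for Car2 (-1.34 ± 0.27, adjusted p = 0.00103) and for Car13 (-0.68 ± 0.25, adjusted p = 0.0418). Car5b and Car12 did not pass in these females (-0.21 and -0.58, adjusted p = 0.565 and 0.320). Car4 and Car8 were lower after vAKI in these females alone (-1.79 ± 0.58 and -1.07 ± 0.35, adjusted p = 0.0219 and 0.0241), with Car4 at 12.9, 15.4 and 6.53 CPM against 48.3, 63.9 and 10.2 CPM, where 1 iAKI library overlapped. In Hoxb7Cre females Car14 was at 25.9, 22.4, 15.6 and 49.7 CPM after vAKI and 16.7, 11.9 and 28.95 CPM after iAKI, which was not called, while Car3 was lower after vAKI than after iAKI (-2.08 ± 0.46, adjusted p = 0.0205).

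Car4 had the largest sex difference of the members in total kidney RNA. The 10 females were at 86.5, 101.9 and 110 CPM (lowest, median and highest) and the 11 males at 187, 219 and 295 CPM. The ranges did not overlap, and females were lower by a log2 change of -1.09 ± 0.06 (adjusted p = 4.02e-12). The summed proximal tubule markers were also lower in females, at 12862 to 18424 CPM against 17483 to 22668 CPM, with 3 of 8 markers called lower and 1 higher, and their part was not tested. In all, 7 of 9 members differed by sex in total RNA (30.9% of all genes), and the other 6 were higher in females.

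Car15 was at 254 ± 49 CPM in females (n = 10) and 163 ± 19 CPM in males (n = 11), a rise of 0.66 ± 0.09 (adjusted p = 6.38e-06). Car8 was 1.64-fold, Car3 1.40-fold, Car2 1.31-fold, Car5b 1.31-fold and Car14 1.19-fold higher in females, with overlapping ranges for each. Of the intercalated cell markers 7 of 8, of the thick limb markers 4 of 5 and of the endothelial markers 4 of 5 were also higher in females. Car12 and Car13 were not called, at 248 ± 34 and 4.37 ± 0.53 CPM in females and 282 ± 42 and 3.79 ± 0.55 CPM in males.

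**Figure D5:**
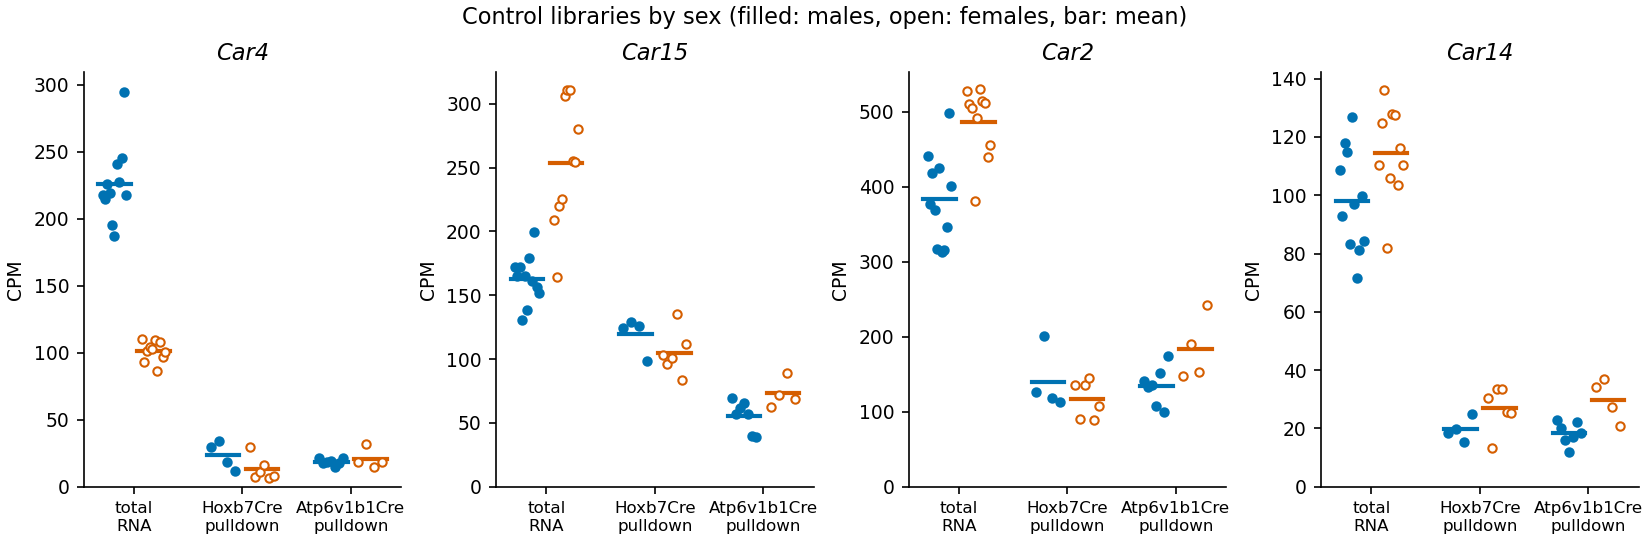
CPM of Car4, Car15, Car2 and Car14 in every control library by RNA pool and sex, with males as filled points, females as open points and bars at the means. The Car4 points of males and females are apart in total RNA (187 to 295 and 86.5 to 110 CPM) and mixed in both pulldowns.

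In the 43 pulldowns of mice aged 5.5 months, with driver and condition in the model, 3 of 9 members were higher in females, beside 7.25% of all genes called and 3.42% called higher in females. Car5b, an X-linked gene, was at 59.9 CPM on average in females (n = 21) and 39.3 CPM in males (n = 22), a rise of 0.64 ± 0.10 (adjusted p = 1.05e-05). Car8 and Car2 were 1.30-fold and 1.26-fold higher (adjusted p = 0.0337 and 0.0438). Car4 was not called here, and whether its sex difference differs between total RNA and the pulldowns was not tested. In the control pulldowns alone 0 of the 3 passed.

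The genes most like each member were ranked by the correlation of log2 CPM over the 48 pulldowns among 15130 genes, as a description of libraries that share depth and condition. For Car2 the first was Atp6v1d, a subunit of the vacuolar proton pump, at r = 0.93, but in the 21 total RNA libraries the pair was at r = -0.33. For Car3 the first 3 were Retn, Adipoq and Ccdc80 at r = 0.78, 0.75 and 0.73, with 0.78, 0.90 and 0.75 in total RNA. Retn and Adipoq encode hormones of adipocytes. Car15 came with Ache (0.86), Aqp2 (0.82), the water channel of principal cells, and Sult2b1 (0.79).

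Car14 came with Slc22a5 (0.83), the carnitine transporter, Prodh (0.81), the first enzyme of proline breakdown, and Etnk1 (0.78). Car13 came with Timp1 (0.77), Flot1 (0.77) and Adgrg2 (0.76), and the first was at r = 0.03 in total RNA. Car4 came with Rtn4ip1 (0.86), Ccdc91 (0.86) and Pigq (0.85), Car12 with Cyp2j11 (0.91), Gtf2i (0.88) and Ccdc91 (0.88), Car5b with Sytl4 (0.81), D330045A20Rik (0.80) and Eif2s3x (0.78), and Car8 with Ifitm1 (0.76), Colec12 (0.73) and Tmem47 (0.72). Among the members themselves Car4 and Car12 were the most alike pair in the pulldowns (r = 0.74) and Car13 and Car14 the most opposed (r = -0.52). In total RNA these pairs were at r = 0.44 and 0.24.

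The family has 7 further genes in the table. Car9, the hypoxia-inducible membrane enzyme, was the highest of them at 15.5 ± 8.6 CPM in total RNA (n = 21), with females at 5.11 to 12.1 CPM and males at 17.6 to 27.1 CPM and no overlap (-1.63 ± 0.12, adjusted p = 1.29e-10). It was lower in females in the pulldowns too (-1.27 ± 0.20, adjusted p = 1.17e-05), and lower in the pulldowns than in total RNA (-1.97 ± 0.18 and -1.63 ± 0.16 for Hoxb7Cre and Atp6v1b1Cre). Car5a, Car7 and Car11 were at 4.08, 3.27 and 3.66 CPM in total RNA, each lower in both pulldowns. In total RNA Car5a and Car11 were 2.0-fold and 1.82-fold higher in females. Of these 7 genes only Car7 was called after an injury, at 1.87 against 1.08 CPM after vAKI in Hoxb7Cre males (adjusted p = 0.0286). Car1, Car6 and Car10 had mean counts under 1 per library.

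The transporters that pass on the bicarbonate and protons were counted as a list of 18 Slc4, Slc26 and Slc9 genes. After iAKI, 2 of 18 fell in Hoxb7Cre males and 1 of 18 rose in Atp6v1b1Cre males, beside 6.13% and 8.51% of all genes called. The fallen genes were Slc4a1, the chloride-bicarbonate exchanger of acid-secreting intercalated cells, at 9.74 against 43.6 CPM (-2.15 ± 0.46, adjusted p = 0.00798), and Slc9a2, a sodium-proton exchanger (-0.73 ± 0.20, adjusted p = 0.0319). The gene that rose was Slc4a11, at 26.2 against 13.1 CPM (adjusted p = 0.00360).

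After vAKI, 5 of 18 fell (Slc4a1, Slc4a3, Slc4a11, Slc9a2 and Slc9a4) and 1 rose (Slc26a3, at 0.853 CPM) in Hoxb7Cre males, and 3 fell (Slc4a3, Slc26a6 and Slc9a2) and 1 rose (Slc4a5) in Atp6v1b1Cre males. These 6 and 4 of 18 stand beside 35.5% and 14.6% of all genes called. Slc4a3 and Slc9a2 thus fell in both drivers, Slc9a2 by 1.06 and 0.73 on the log2 scale. The injuries were also compared directly in Atp6v1b1Cre males, where 29.3% of all genes were called. Slc26a4 and Slc4a4 are named from that comparison as examples of opposite direction, not as a count of the list. The calls of the other transporters in that comparison are not given here. Slc26a4, the exchanger pendrin of base-secreting intercalated cells, was at 290 CPM after vAKI and 539 CPM after iAKI (adjusted p = 0.00876). Slc4a4, the basolateral cotransporter of the proximal tubule, was at 1090 against 495 CPM (adjusted p = 0.0462). The list's median change was between -0.19 and 0.11 in the 4 comparisons with controls, and that of all genes was 0.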

How the data were processed

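The authors sequenced poly(A) RNA (TruSeq kit, no strand marking) and deposited the raw read counts of each gene without normalization. The submitters' processing notes name CASAVA 1.8.2, Trimmomatic 0.36, STAR 2.5.3a and HTSeq 0.6.1p2, and the build mm10. The annotation version used for counting is not given in the sources used here. Libraries were grouped by their titles. Here, genes whose counts summed to 2 or more were kept (21175 of 24411) and tested with edgeR 4.0.16 (quasi-likelihood, TMM, R 4.3.3), with adjusted p by the Benjamini-Hochberg method.

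Injury was fitted on 22 male pulldowns as groups, pulldown against total RNA and driver against driver on 42 control libraries, sex in pulldowns with driver and treatment as covariates, sex in total RNA with genotype and age, genotype with sex and age, and sex by injury on 43 pulldowns. RPKM used GENCODE M21 exon lengths. Groups held 3 to 21 libraries. DESeq2 1.42.0, other filters and scalings, other sample sets, a replicate block, a library series term and leaving out single libraries were the alternatives. The library series was formed here from the library numbers, as 1 to 40, 65 to 85 and 98 to 109. The labels do not name it as a batch, and it was not used for sex by injury. All 9 members were tested in every comparison, and the text names the members that were called and the 3 genes most correlated with each member. Of the transporters it names those called in the injury comparisons with controls, and Slc26a4 and Slc4a4 as examples between the injuries. The members and gene lists were chosen with earlier results of these data known. The fits were tested on simulated data. Of 5 red cell markers only Alas2 was in the table, at 0.623 to 3.21 CPM in control pulldowns and 11.5 to 28.5 CPM in total RNA. In both pulldowns all 5 endothelial markers were below their total RNA levels.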

Additional observations from a re-analysis of the deposited data

Results flagged for a closer look

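In 45 groups of 4 to 10 libraries, tested for a library far from the rest, 4 such values were found where chance gives about 2.25. Car2 was at 201 CPM in Hoxb7Cre control replicate 3, above the other libraries both among all 10 Hoxb7Cre controls and among the 4 males. Car15 was at 75.4 CPM in Hoxb7Cre iAKI replicate 6 and at 98.3 CPM in Hoxb7Cre control replicate 5, each below the other males of its group.

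The responses to ischemia differed between the drivers for Car3 by 2.14 and for Car15 by 0.72 on the log2 scale (Atp6v1b1Cre minus Hoxb7Cre, interaction term in edgeR). In Hoxb7Cre pulldowns the response to ischemia differed between the sexes for Car2 by 1.13, for Car3 by 2.66, for Car12 by 1.54 and for Car15 by 0.97 on the log2 scale (female minus male). The response to volume depletion differed between the sexes for Car5b by 1.07.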

How the results depend on the processing

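DESeq2 size factors, a stricter filter (filterByExpr) and no filter kept all 18 counts of members called within 1.5 times the count reported. DESeq2 called 5 members for sex in pulldowns and 1 for the vAKI difference between drivers. In females alone 0 members were called after iAKI in Atp6v1b1Cre, 0 after vAKI in either driver, 1 after iAKI in Hoxb7Cre, 1 between the injuries in Hoxb7Cre and 0 for the iAKI difference between drivers. With both sexes 0 were called after iAKI in Hoxb7Cre and 0 for the iAKI difference. After vAKI in Hoxb7Cre 1 was called, Car3 (-1.28, adjusted p = 0.0362), which was not called in males. Car4, Car5b, Car12 and Car14, called there in males, did not pass with both sexes (adjusted p = 0.413, 0.251, 0.0538 and 0.0825). For sex in the control pulldowns only, 0 were called. With the library series as a term the counts were 5 for iAKI and 5 for vAKI against iAKI in Hoxb7Cre, and 4 and 2 for the iAKI and vAKI differences between drivers. The cause was not tested.

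Directions reversed in females alone for Car15 between the injuries in Hoxb7Cre (-0.20) and in the iAKI difference (-0.35), Car2 (0.96) and Car3 (0.78) after iAKI in Hoxb7Cre, Car3 between the injuries (-2.08) and in the iAKI difference (-1.25), and Car4 (0.33) and Car5b (0.21) after vAKI in Hoxb7Cre. With both sexes Car2 after iAKI was 0.31 and Car3 between the injuries -0.81, both in Hoxb7Cre. In males alone Car2 between the drivers was -0.051.

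Leaving out 1 library gave 1 to 3 members after iAKI in Atp6v1b1Cre and in Hoxb7Cre, 2 to 6 and 2 to 5 between the injuries, 0 to 5 and 0 to 4 for the sex differences in Hoxb7Cre iAKI and vAKI, and 0 to 3 and 0 to 1 for the driver differences in iAKI and vAKI. After iAKI in Hoxb7Cre, Car2 ran from -0.27 to 0.047, the latter without Hoxb7Cre control replicate 3. The iAKI driver difference fell to 0 members without Atp6v1b1Cre control replicate 9, 10 or 11, Atp6v1b1Cre iAKI replicate 1 or 4, Hoxb7Cre control replicate 2 or 3, Hoxb7Cre iAKI replicate 4, 6 or 7 or Hoxb7Cre vAKI replicate 7, and to 1 without Hoxb7Cre control replicate 4 or Hoxb7Cre vAKI replicate 6. The vAKI driver difference had 1 member without Atp6v1b1Cre vAKI replicate 6 or Hoxb7Cre control replicate 5. Between the injuries in Hoxb7Cre the count was 5 without control replicate 3 or iAKI replicate 5.

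Whether replicate numbers pair the samples could not be settled. In males the groups shared only 0 to 2 numbers, with correlations of -0.42 to -0.07. With both sexes the Hoxb7Cre groups shared 6 numbers each, with correlations of -0.19 to 0.39 for iAKI (mean 0.11) and -0.32 to 0.35 for vAKI (mean 0.16), against means of -0.013 and -0.020 for other pairs, so not every pair was positive. In Atp6v1b1Cre 1 and 2 shared numbers had -0.41 to -0.13. These correlations used departures from group means that did not separate the sexes, so they neither show nor exclude pairing. With the replicate block 0 members were called after iAKI in either driver, for either sex difference in Hoxb7Cre or for the iAKI driver difference, 1 for sex in pulldowns and 5 between the injuries in Hoxb7Cre. The median of all genes was shifted by 0.11 in both comparisons with total RNA.

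Counts over all genes moved by more than 1.5 times as follows. The 1298 genes called after iAKI in Hoxb7Cre were 2151 with DESeq2, 625 with both sexes, 665 in females and 3078 with the library series, and the 1803 in Atp6v1b1Cre were 2882, 3991, 563 and 2897, and 0 with the replicate block. After vAKI the 7521 in Hoxb7Cre were 2704 with both sexes, 23 in females and 4437 with the block, and the 3086 in Atp6v1b1Cre were 6409 with both sexes. Between the injuries the 7049 in Hoxb7Cre were 800 in females and the 6194 in Atp6v1b1Cre were 9407 with both sexes. The driver differences of 1649 (iAKI) and 890 (vAKI) genes were 2830 and 1616 with DESeq2, 585 and 75 with both sexes, 0 and 0 in females, 0 and 53 with the block and 3123 and 2639 with the library series. The 2103 genes between the drivers in controls were 748 in females, the 1536 by sex in pulldowns were 734 in control pulldowns, the 40 by genotype were 43 higher and 65 lower by DESeq2 and 81 with the library series, and the 2231 and 3387 by sex in the Hoxb7Cre responses were 0 and 1 with the block.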
